A study of Mus musculus with 2 samples.

Results

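Mdm2, Mdm4, Zmat3 and Tigar, 2 regulators and 2 reported targets of the tumour suppressor p53, were compared between the mouse mesoangioblast clones D16 and D351. Mesoangioblasts are progenitor cells of mesodermal tissues found at embryonic vessels. The members are all probe sets (groups of short probes read as 1 value) annotated to 1 of these genes alone, which gave 4 probe sets of 11934 on the array, 1 for each gene, or 4 of 5928 named genes. These genes were picked with their intensities in both clones known, so their differences are described here and not tested. Both clones came from dorsal aorta of C57BL6 embryos at embryonic day 9.5, which was kept as an explant for 5 days. The cells were then cloned by limiting dilution on embryonic fibroblasts arrested with mitomycin C, and the clones were expanded on gelatin. As D16 and D351 are single clones, a property of the clone and one of its culture cannot be told apart. No further treatment or genotype is labelled, and each clone contributed total RNA for 1 array, the C chip of the Affymetrix murine U74 set. Without replicate arrays no test was possible, and having 1 array for each clone limits the precision of every value. All differences are D16 against D351, and a log2 ratio is the D16 value minus the D351 value, so that a negative ratio means higher in D351.

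The p53 protein is a transcription factor that responds to DNA damage and other stress by arresting the cell cycle, starting repair or killing the cell. Mdm2 is a ubiquitin ligase that marks p53 for destruction and is itself a p53 target, which closes a negative feedback loop. Its relative Mdm4 binds p53 and blocks its activation domain, has little ligase activity of its own and works with Mdm2 as a heterodimer. Zmat3, also called Wig1, is a zinc finger protein that binds RNA and is induced by p53. Tigar, described in human cells as a p53-induced gene, lowers fructose 2,6-bisphosphate, which slows glycolysis and favours the pentose phosphate route.

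The sequences before the transcription starts of Mdm2 and Tigar are shown because Mdm2 is a regulator and a target at once and Tigar is a target, and their intensities differed in opposite directions. RefSeq windows (GRCm38.p6) were matched for 3 of the 4 genes, Mdm2, Mdm4 and Tigar, the second with 2 starts. Each window below covers the 250 bases before the start, 5′ to 3′ on the gene's strand, at chr10:117710759-117711008 (minus strand) for Mdm2 and chr6:127109553-127109802 (minus strand) for Tigar. Capitals mark the GC box (GGGCGG), the CCAAT box (searched as ATTGG) and the p53 decamer consensus, each looked for on both strands.
Mdm2: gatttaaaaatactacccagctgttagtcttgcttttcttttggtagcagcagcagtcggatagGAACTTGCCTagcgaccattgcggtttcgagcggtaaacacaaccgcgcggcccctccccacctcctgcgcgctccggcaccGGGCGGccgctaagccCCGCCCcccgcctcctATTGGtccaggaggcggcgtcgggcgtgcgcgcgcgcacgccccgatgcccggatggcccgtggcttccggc
Tigar: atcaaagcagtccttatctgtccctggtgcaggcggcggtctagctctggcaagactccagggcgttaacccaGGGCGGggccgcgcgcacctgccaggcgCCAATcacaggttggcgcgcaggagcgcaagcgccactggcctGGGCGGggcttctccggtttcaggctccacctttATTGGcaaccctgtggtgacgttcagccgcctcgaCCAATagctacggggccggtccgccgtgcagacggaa

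The Mdm2 window held 1 match to the p53 decamer, from 186 to 177 bases before the start, and the Tigar window held 0. Over 32851 windows of this length, 7.13% held at least 1 such match. The GC box matched 2 times in each of these windows, and 32.7% of all windows held it. The CCAAT box matched 1 time in the Mdm2 window and 3 times in the Tigar window, against 33.8% of all windows with a match. None of these 3 motifs matched in either Mdm4 window, and no 2 of the capitalised matches overlap. The Mdm2 and Tigar windows were each 65.6% G and C, against 47.2% and 41.6% for the Mdm4 windows and a median of 52.4% over all windows. The decamer is only a half-site of p53, and bases farther upstream or inside the genes were not searched. Neither the match in the Mdm2 window nor its absence in the Tigar window therefore shows whether a gene has a p53 site. A match describes these letters and not a bound site, and no binding data were analysed here.

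Mdm2 and Mdm4 were both higher in D351, by 3.68-fold and 2.40-fold, while Zmat3 and Tigar were higher in D16, by 3.34-fold and 3.32-fold. The intensities are linear values as the authors deposited them, 1 for each probe set and array. A floor was set at 6.4, the median of all values of both arrays without control probe sets. Values no higher than this floor are termed dim and were set to it ahead of the log2 step. A gene was called measured where at least 1 clone was above the floor, and differences were described by a fixed size of 2-fold. By that size, 20.5% of 3934 measured genes differed, 10.2% higher in D16 and 10.3% higher in D351. All 4 members were above the floor in both clones and all 4 were past 2-fold, from which nothing is read since they were chosen on this contrast.

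Among the regulators, Mdm2 read 233.1 in D16 against 856.9 in D351. Both values lay far above the floor and above the 11.2 that the brightest of 38 values of bacterial and yeast negative control probe sets reached. The log2 ratio was -1.88, and of the 3934 measured genes 127 (3.23%), Mdm2 included, had a ratio at least as far towards D351. The measured genes were put into 4 bins of like size by mean intensity, and in the brightest, to which Mdm2 belongs, 18.4% of 984 genes were past 2-fold. Mdm4 read 9.9 in D16 against 23.8 in D351, a log2 ratio of -1.27. In D16 it was no brighter than some negative controls, of which 2 values were as high or higher. Under a higher floor of 20.7, the 75th percentile, Mdm4 was dim in D16 and at least 1.15-fold higher in D351. In its bin of mean intensity, the next to dimmest, 31.2% of 983 genes were past 2-fold. The ratios of Mdm2 and Mdm4 thus had the same direction, but the 2-fold difference of Mdm4 depends on the floor and that of Mdm2 does not.

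Of the targets, Zmat3 read 49.8 in D16 against 14.9 in D351, a log2 ratio of 1.74. Tigar had 56.8 in D16 against 17.1 in D351, a log2 ratio of 1.73. The D351 value of each was above every negative control value but below 20.7, and with the floor there Zmat3 was at least 2.41-fold and Tigar at least 2.74-fold higher in D16. The ratios of these 2 genes differed by 0.0089 log2. In their bin of mean intensity, the next to brightest, 21% of 983 genes were past 2-fold, and over all measured genes 111 and 115 had ratios at least as far towards D16 as Zmat3 and Tigar. The ratio of Mdm2 minus that of Zmat3 was -3.62 log2, a 12.3-fold gap, and minus that of Tigar it was -3.61 log2.

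**Figure D1:**
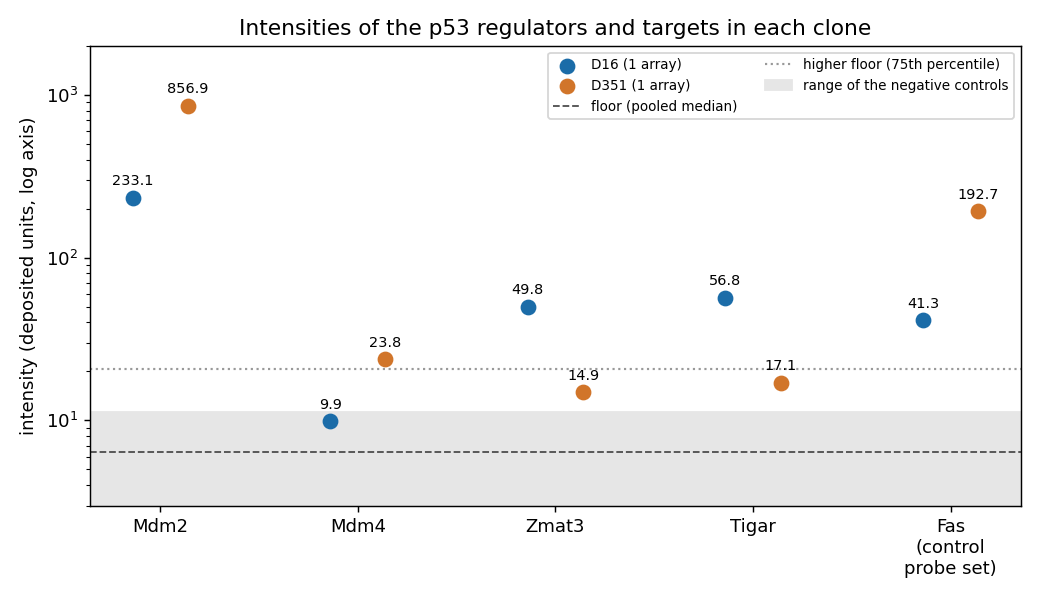
Intensity on a log axis of Mdm2, Mdm4, Zmat3, Tigar and the control probe set for Fas on the D16 array (left point, blue) and the D351 array (right point, orange), 1 array each, so no error bars. Mdm2, Mdm4 and Fas are higher in D351 and Zmat3 and Tigar in D16. Only the D16 value of Mdm4, 9.9, lies within the grey range of the negative controls, which ends at 11.2.

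The only measure of error within these data is how far probe sets of the same gene differ. This could be read from 409 genes for which 2 or more probe sets exceeded the floor on both arrays, and the 2 brightest gave an SD of 0.67 log2 per probe set. The log2 ratio of Mdm2 was 2.78 times this SD, that of Zmat3 2.58 times, that of Tigar 2.57 times and that of Mdm4 1.88 times. Pairs of probe sets of the same gene were at least as far from each other as the Mdm2 ratio in 27 of the 409 genes (6.60%), as the Zmat3 ratio in 30, as the Tigar ratio in 30 and as the Mdm4 ratio in 55 (13.4%). Both probe sets of a pair were read on the same 2 arrays, so this SD holds no variation between arrays, RNA samples or cultures. Nothing is read from these multiples and shares, since the 4 genes were chosen on this contrast. With 1 probe set for each of the 4 genes, no second reading was analysed here for any of them. All 4 probe sets have identifiers without the letter mark that denotes shared sequence or relaxed probe selection.

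**Figure D2:**
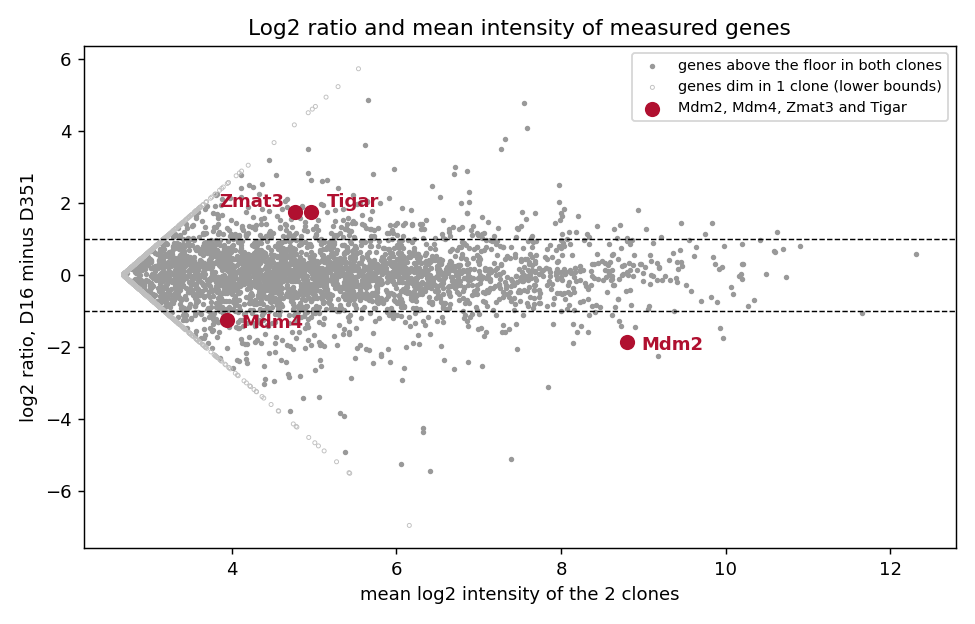
Log2 ratio (D16 minus D351) against mean log2 intensity of 3934 measured genes, with dashed lines at 2-fold. Filled grey points are genes above the floor in both clones and open points are genes dim in 1 clone, whose ratios are lower bounds. The 4 genes in red lie outside the 2-fold lines, Mdm2 among the bright genes and Mdm4 among dim ones.

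Scaling was the other property of the arrays that bears on these ratios. Hybridization controls (9 probe sets for BioB, BioC, BioD and CreX) were 1.59-fold brighter in D16 by their median, although the trimmed mean of all probe sets was 20.01 on both arrays. Scaled to these controls, the median log2 ratio of all measured genes moved to -0.58, against 0.022 as deposited. Mdm2 was then at -2.55, Mdm4 at -1.94, Zmat3 at 1.07 and Tigar at 1.06 log2. The 4 genes thus kept their directions and 2-fold size under this scaling, Zmat3 and Tigar only narrowly. Relative to the moved median the ratios are -1.97, -1.35, 1.65 and 1.64. These lie near the ratios as deposited by construction, since the scaling moves the ratio of every gene above the floor by the same amount. For Gapdh the 3′ over 5′ control ratio was 1.39 in D16 against 1.22 in D351, and for Actb 1.49 in D16 against 1.24 in D351, and the part of this difference in the results was not tested.

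**Figure D3:**
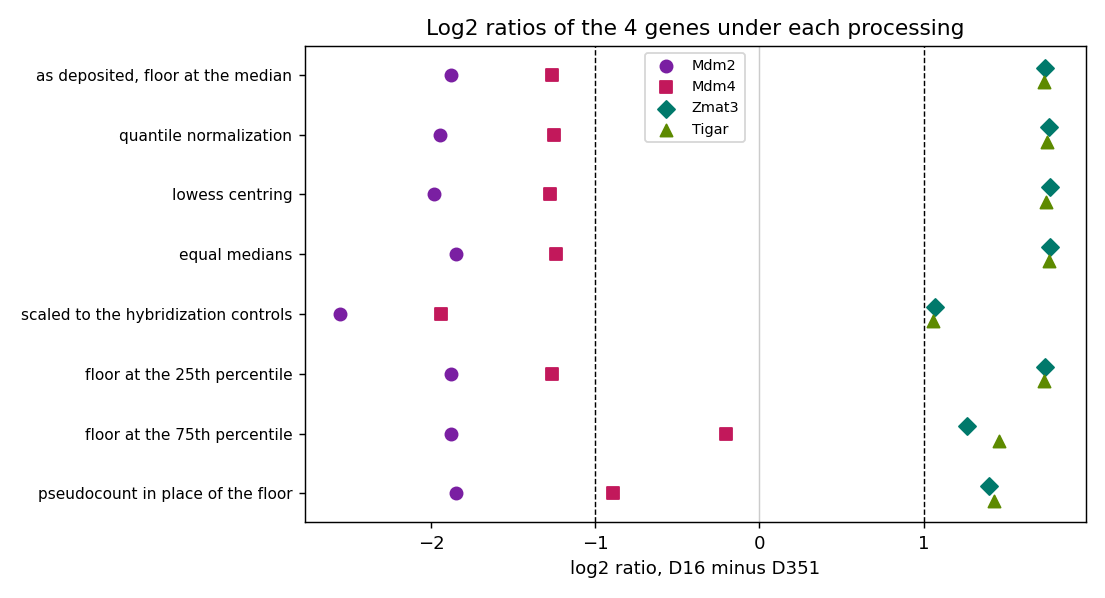
Log2 ratio (D16 minus D351) of Mdm2, Mdm4, Zmat3 and Tigar under 8 ways of scaling or flooring the intensities, with dashed lines at 2-fold. Mdm2, Zmat3 and Tigar stay outside the lines under all 8, while Mdm4 falls inside at -0.20 under the 75th percentile floor and at -0.89 with a pseudocount.

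Other genes of the pathway were drawn from 10 lists, of which the array held only part. Of 147 genes on the array other than the 4 members, 107 were measured. Past 2-fold lay 17 towards D16 and 8 towards D351, together 23.4%, near the 20.5% of all measured genes. This pooled share does not describe each list. The cell cycle list alone gave 12 and 2 of these genes, 48.3% of its 29 measured genes, and the other lists ran from 0% to 27.3%. Upstream, 5 of 12 genes of the p53 family and DNA damage signalling were measured. Their median log2 ratio was -0.15, against 0.022 over all measured genes. Claspin (Clspn), an adaptor that activates the checkpoint kinase Chek1, stood at 55.4 in D16 against 15 in D351, 3.69-fold higher in D16, and was the 1 of the 5 past 2-fold. Hipk2, a kinase that phosphorylates p53, read 38.3 in D16 against 72.9 in D351, under 2-fold. Mapk8 had 3 measured probe sets, of which only the brightest was counted. That one read 61.3 in D16 against 92.3 in D351 and a dimmer one 9.5 in D16 against 18.6 in D351, both under 2-fold. Another, with a letter mark, pointed the other way, at 26.4 in D16 and dim in D351. It was at least 4.12-fold higher in D16. Trp63 was dim in both clones, at 3.2 in each, and the p53 gene itself, Trp53, was not analysed here.

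Of 22 measured genes that control Mdm2 and Mdm4 or act with them, 1 was past 2-fold in each direction, together 9.09% beside the 20.5% of all measured genes, and the median was -0.0084. Ube4b, a ubiquitin chain elongation factor reported to act on p53 with Mdm2, stood at 25.3 in D16 against 7.9 in D351, 3.20-fold higher in D16. Pml, whose nuclear bodies bring p53 and its modifiers together, was dim in D16 at 6.4 and reached 36.2 in D351, at least 5.66-fold higher in D351. With the floor at 20.7 the log2 ratios of Ube4b and Pml were within 2-fold as lower bounds, at 0.29 and -0.81. The brightest genes of the list were the ribosomal protein gene Rps20 (6237 in D16 against 4135 in D351) and Trim28 (573.6 in D16 against 391.9 in D351), both under 2-fold. A second probe set of each had a ratio of the opposite sign and under 2-fold. Among 10 measured cofactors and modifiers of p53 none was past 2-fold, beside the same 20.5%, and the ratios ran from -0.67 to 0.60 with a median of 0.32. The brightest were Cul9, a cytoplasmic p53-binding protein (160.3 in D16 against 153 in D351), and Spin1 (108.2 in D16 against 98.9 in D351). Another probe set of Cul9 read 15.2 in D16 against 30.8 in D351, 2.03-fold higher in D351.

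Over 3 lists of other reported p53 targets, 15 of 26 genes on the array were measured, with 1 past 2-fold towards D16 and 1 towards D351. This is 13.3% of 15 genes beside 20.5% of all measured genes, and nothing is read from that gap in so few genes. Of the 15, 5 lay above 0 and 9 below, and the median was -0.13. After scaling to the hybridization controls, 0 and 5 were past 2-fold towards D16 and D351, where all measured genes had 3.67% towards D16 and 27.5% towards D351. Of 4 measured genes for arrest and repair, Mgmt, which removes alkyl groups from DNA, was 3.93-fold higher in D351 (17.6 in D16 against 69.1 in D351), and the list median was -0.39. Zfp365 read 327.2 in D16 against 523.7 in D351 and, by another probe set, 41.9 in D16 against 80.4 in D351, both under 2-fold. None of 6 measured genes for cell death was past 2-fold (median -0.071). Bbc3, the Puma gene, read 30.3 in D16 against 37.1 in D351. Pidd1 read 111.7 in D16 against 108.1 in D351, while a second probe set of it was dim in D16, at 2.1, and read 9.7 in D351. Plagl1 read 262.5 in D16 against 233.8 in D351. Of 5 measured genes for metabolism, redox and secretion (median -0.13), Hspa4l, a chaperone gene, was 2.79-fold higher in D16 (49.7 in D16 against 17.8 in D351). Ptpn14, a phosphatase gene, read 298.3 in D16 against 548.7 in D351, and Pvt1, a non-coding RNA, 348.3 in D16 against 382 in D351, both under 2-fold.

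The death receptor gene Fas, which is also on the list of targets for cell death, was read by a control probe set of the manufacturer and so did not enter the counts above. Its intensity was 41.3 in D16 against 192.7 in D351, 4.67-fold higher in D351. Both values lay above 20.7. The Fas ratio of -2.22 log2 had the direction of Mdm2 and Mdm4 and was opposite to that of Zmat3 and Tigar.

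**Figure D4:**
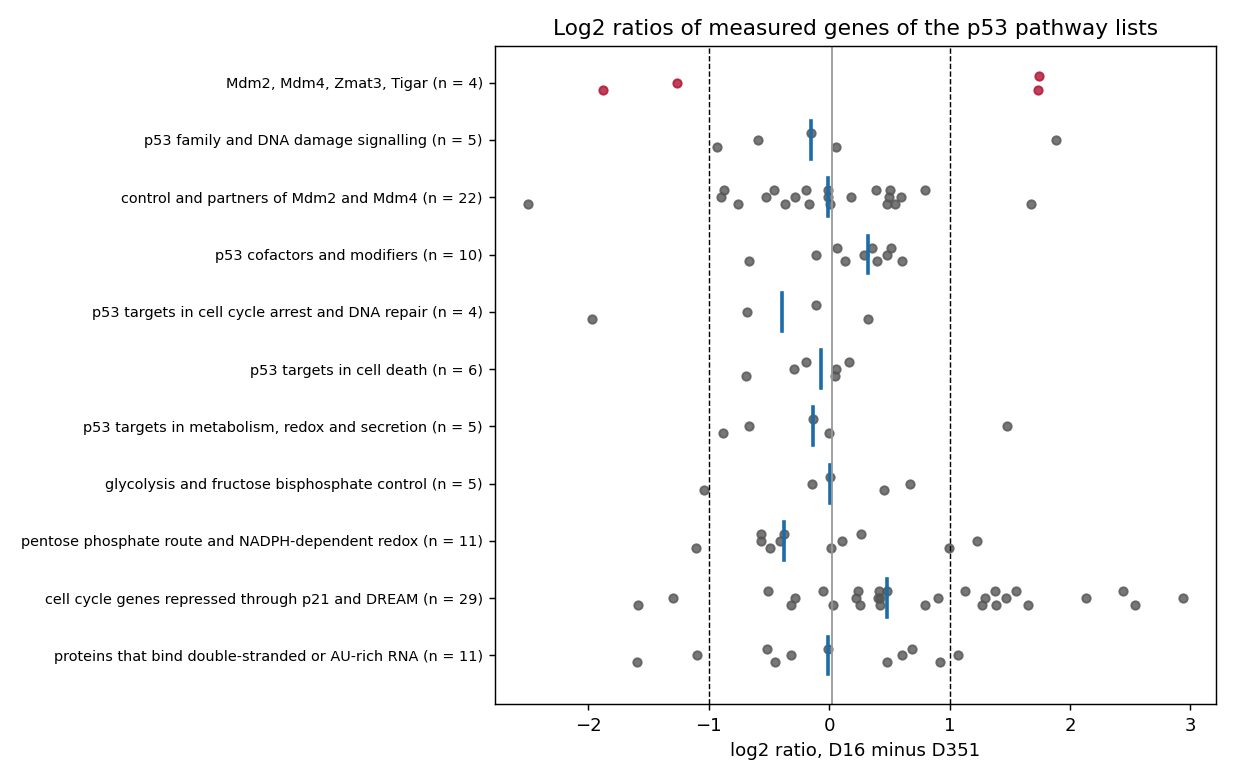
Log2 ratios (D16 minus D351) of measured genes of 10 pathway lists, 1 point for each gene, with the list median as a blue bar, the median of all measured genes as a grey line and dashed lines at 2-fold. The 4 members are in red in the top row. Most genes of the lists of regulators and targets lie within 2-fold, as do most measured genes of the array, and 12 of 29 cell cycle genes lie beyond it towards D16.

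Tigar acts on glycolysis and the pentose phosphate route, and the shares past 2-fold in these routes, 20% of 5 and 18.2% of 11 measured genes, were near the 20.5% of all measured genes. Of the 5 measured genes for glycolysis and fructose bisphosphate control, Pfkfb2, whose product makes and breaks down the same metabolite that Tigar lowers, stood at 14.7 in D16 against 30.2 in D351. It was 2.05-fold higher in D351, opposite to Tigar, but its log2 ratio was only -0.54, as a lower bound, with the floor at 20.7. Pkm (149.9 in D16 against 109.3 in D351) and Pdhb (188.1 in D16 against 187 in D351) were under 2-fold. Of the 11 genes of the pentose phosphate route and redox balance, Txn2, a mitochondrial thioredoxin, was at least 2.34-fold higher in D16 (15 in D16 and dim in D351). The peroxiredoxin gene Prdx4 was 2.15-fold higher in D351 (16.3 in D16 against 35 in D351). The list median was -0.38, and the bright superoxide dismutase gene Sod1 read 434.3 in D16 against 430.2 in D351. Glrx3, the next brightest of the list, read 41.6 in D16 against 61.6 in D351, under 2-fold.

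As Zmat3 binds RNA, a list of proteins that bind double-stranded or AU-rich RNA was read beside it, and 11 of 16 on the array were measured with a median of -0.0085 and 27.3% past 2-fold, beside 20.5% of all measured genes. Zfp346, a zinc finger protein that binds double-stranded RNA, was 2.09-fold higher in D16 (31 in D16 against 14.8 in D351), the direction of Zmat3. Stau1, a carrier of double-stranded RNA, was 3.03-fold higher in D351 (92 in D16 against 278.6 in D351), and the RNA editing enzyme gene Adar 2.14-fold (12.1 in D16 against 25.9 in D351). Zmat4, a relative of Zmat3, read 11.6 in D16 against 15.8 in D351, under 2-fold. Prkra, with Stau1 the brightest of this list, read 236.3 in D16 against 168.9 in D351, under 2-fold.

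Cell cycle genes that p53 is reported to repress through p21 and the DREAM complex leaned to D16, the direction of Zmat3 and Tigar. Of 29 measured, 12 lay past 2-fold towards D16 and 2 towards D351, a share of 48.3% beside the background of 20.5%, and the median was 0.48. After scaling to the hybridization controls the numbers were 4 and 2, a share of 13.8% towards D16 beside 3.67% of all measured genes, with a median of 0.090 where that of all genes was -0.58. With the floor at 20.7, 8 of 20 lay past 2-fold towards D16 and 0 towards D351, beside 8.33% and 7.91% of all genes measured there. Over probe sets without a letter mark, 5 of 14 (35.7%) lay past 2-fold towards D16 and 0 towards D351. Of all genes measured by such probe sets, 10.1% and 10.5% did. By the mean over the probe sets of each gene, the numbers were 10 and 1. Many of these genes were known from earlier results of these data to lean to D16. Stil, needed for centriole duplication, stood at 173.1 in D16 against 22.6 in D351, and Pold1, the catalytic subunit of DNA polymerase delta, at 126.2 in D16 against 28.7 in D351. Cenpn (44.4 in D16 against 8.2 in D351), Dut (49.9 in D16 against 8.6 in D351) and Cdca2 (21 in D16 against 6.7 in D351) were past 2-fold as well. Their D351 values lay below the brightest negative control, 11.2, and a floor of 20.7 left lower bounds of 2.14-fold for Cenpn, 2.41-fold for Dut and 1.01-fold for Cdca2. The exceptions were Ube2s (8.3 in D16 against 24.9 in D351) and Zwint, dim in D16 and at 15.7 in D351 by 1 probe set but at 14.6 in D16 and dim in D351 by another. The brightest genes of this list, Gins1 (327.9 in D16 against 277.2 in D351) and Mcm5 (252.4 in D16 against 260.9 in D351), were under 2-fold. Whether the cell cycle has a part in the ratios of Mdm2, Mdm4, Zmat3 and Tigar was not tested. Some of the named list genes were past 2-fold by a brightest probe set that had a letter mark. These were Clspn, Pml, Mgmt, Zfp346, Stau1, Stil, Pold1, Cenpn, Cdca2, Ube2s and Zwint, and the fibroblast marker Col5a1. Many genes named as under 2-fold had such a mark as well, as did several chromosomal neighbours named below. Among them were Rps20, Trim28, Cul9, Bbc3, Plagl1, Ptpn14, Pvt1, Pkm, Pdhb, Sod1, Gins1 and Mcm5. Raising the floor to 20.7 left Txn2 and Zwint dim in D16 and D351 alike, and put Prdx4, Adar, Zfp346, Cdca2 and Ube2s within 2-fold as lower bounds.

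Markers of fibroblasts differed between the clones in the direction of Mdm2 and Mdm4. The feeder layer on which the clones were started was of embryonic fibroblasts. Of 7 of their markers on the array 6 were measured and 5 (83.3%) lay past 2-fold towards D351, beside 10.3% of all measured genes, and their summed intensity was 799.8 in D16 against 2599 in D351. Mfap5 was 6.14-fold, Fgf10 4.76-fold, Col5a1 3.38-fold and Loxl1 3.19-fold higher in D351, while Col5a2 was near 0 in both clones, at 0.7 in D16 against 0.2 in D351. A second probe set of Fgf10 read 17.9 in D16 against 28.6 in D351, under 2-fold. The part of such cells in the results was not tested, and in RNA from a whole culture fewer cells of a type and less RNA per cell cannot be told apart. Nor can RNA of feeder cells be told apart from expression of these markers by the clones themselves. Only 4 mesoangioblast and vessel progenitor markers were on the array, with summed intensities of 156.9 in D16 against 132.9 in D351. The bright ones, Abcg2 (77 in D16 against 46.9 in D351) and Anxa2 (73.6 in D16 against 61.1 in D351), were under 2-fold. Kdr and Acta2 were dim in D16, at 1.6 and 4.7, and stood at 9.5 and 15.4 in D351, where Acta2 was at least 2.41-fold higher. Blood markers (2 measured of 2) summed to 140.8 in D16 against 197.9 in D351 with none past 2-fold. Epithelial markers (3 measured of 4, Krt14 near 0 in both) summed to 130.5 in D16 against 164 in D351, with only Upk1b past 2-fold, at least 2.53-fold higher in D351. A floor of 20.7 left Acta2 and Upk1b dim in D16 and D351 alike.

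The members lie on chromosomes 10 (Mdm2), 1 (Mdm4), 3 (Zmat3) and 6 (Tigar), and the 5 nearest measured genes on each side were read in the gene order of GRCm38.p6. Because the array held few of the genes in between, the farthest of them was 41 to 99 genes away. Of the 40 neighbours, 0 were past 2-fold towards D16 and 3 towards D351, together 7.5% beside the background of 20.5%, and 18 of 39 (46.2%) were past it after scaling to the hybridization controls, all towards D351, where 27.5% of all measured genes were. As deposited, their median log2 ratio was -0.42 and 29 of 40 lay below 0, where 48.7% of all measured genes did. Beside Mdm2, none of 10 was past 2-fold, and the median was -0.38. Nup107, a nuclear pore gene 2 genes away, had a log2 ratio of -0.70 (91.3 in D16 against 147.9 in D351) and Cand1 -0.99 (29.3 in D16 against 58 in D351). Yeats4, Rab3ip, 4933412E12Rik and Lemd3 had log2 ratios of 0.17, -0.80, -0.31 and -0.45. Next to Mdm4 lay Plekha6 (-0.54), Snrpe (-0.49, a lower bound), Prelp (-0.21), Cntn2 (0.33), Mfsd4a (-0.22) and Elk4 (0.12). The 1 of 10 past 2-fold there was Pfkfb2, at -1.04, which is the glycolysis gene described above.

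None of the 20 neighbours of Zmat3 and Tigar was past 2-fold towards D16, beside 10.2% of all measured genes. Beside Zmat3, Slc7a14 was dim in D16 and at 15.6 in D351, and Usp13 read 6.9 in D16 against 16.3 in D351, so both passed 2-fold towards D351, though neither was above a floor of 20.7 in D16 or D351. Eif5a2, Tnik, Mfn1 and Gnb4 had log2 ratios of -0.42, -0.47, -0.49 and 0.096. Beside Tigar, none of 10 was past 2-fold, from Ndufa9 at -0.77 to Prmt8 at 0.10, with Rad51ap1 at 0.019, Gm33581 at -0.50, Parp11 at -0.49 and 9330102E08Rik at -0.078. The ratios of the 10 neighbours ran from -0.99 to 0.49 for Mdm2, -1.04 to 0.33 for Mdm4, -1.29 to 0.63 for Zmat3 and -0.77 to 0.10 for Tigar. Nothing is read from how far the 4 genes lie from them, since the 4 were chosen on this contrast and their neighbours were not.

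**Figure D5:**
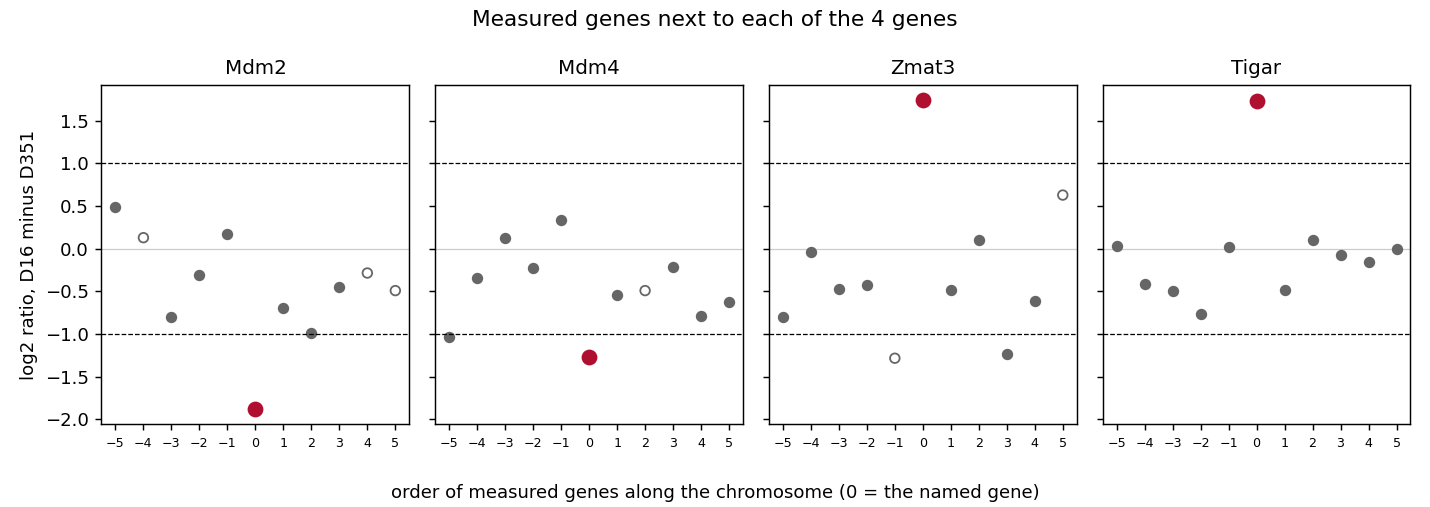
Log2 ratio (D16 minus D351) of the 5 nearest measured genes on each side of Mdm2, Mdm4, Zmat3 and Tigar, in gene order and not to scale in distance, with the named gene in red at 0 and dashed lines at 2-fold. Open points are lower bounds. Of the 40 neighbours, 37 lie between the dashed lines and 3 below them.

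Over 2 arrays the only pattern a gene can share with another is its ratio. Among 3057 other genes above the floor in both clones, those with the nearest log2 ratio were Stxbp5, Prtg and Slc6a17 for Mdm2, and Cep170b, Lrrc3 and Zfp455 for Mdm4. They were Ube2d-ps, Rabggta and Plekha4 for Zmat3, and Exoc6, Shmt1 and Plekha4 for Tigar, all 12 pairings within 0.0070 log2.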

How the data were processed

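Intensities of 11934 probe sets on a linear scale were deposited by the authors for the D16 and D351 arrays and were used as they stand. How the authors scaled them, with which software, is not given in the sources used here. The 66 control probe sets were set aside from counts, which left 11868, of which 7717 were annotated to 1 gene, 150 to several and 4001 were unnamed here. Of the 7717, 7677 had a gene ID in the RefSeq table of GRCm38.p6, and 0 symbols changed. The brightest probe set stood for each of 5928 genes. Above the floor were 5956 probe sets in D16 and 5832 in D351. The members, lists, size rule and alternatives were chosen with earlier results of these data known. From each pathway list the text names members past 2-fold, up to 5 in each direction, and the 2 brightest, and from each marker list up to 4 in each direction. It also names the 3 nearest measured neighbours on each side and the 3 genes of nearest ratio. Outside these rules it names Trp63, Bbc3 and Zmat4 of the pathway lists. Of the marker lists it likewise names Abcg2, Anxa2, Kdr, Col5a2 and Krt14. Fas is named from the control probe sets. List symbols were matched directly or through RefSeq synonyms. The procedure was checked on simulated arrays. The simulated differences were larger than those of the 4 genes and were planted only in probe sets brighter than those of Mdm4, Zmat3 and Tigar. Their noise was smaller than the scatter between probe sets of 1 gene. That check therefore does not bear on dim genes or on smaller differences. Alternatives were other scalings, floors, size rules and choices of probe sets. Tools were Python 3.11.15, pandas 2.3.3, numpy 2.4.6, matplotlib 3.10.9, statsmodels 0.14.6 and scipy 1.17.1.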

Additional observations from a re-analysis of the deposited data

How the results depend on the processing

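Under 10 alternatives (quantile normalization, lowess centring with a span of 0.3, equal medians, scaling to the hybridization controls, floors at the 25th and 75th percentile, a pseudocount, a 3-fold rule, unmarked probe sets and the mean over probe sets), Mdm2 (-2.55 to -1.85 log2), Zmat3 (1.07 to 1.77) and Tigar (1.06 to 1.76) kept direction and size. Mdm4 kept its direction but was not past the size rule under 3: at -1.27 with 3-fold, -0.20 with the higher floor and -0.89 with the pseudocount. Some of these outcomes were fixed in advance, as each of the 4 genes had 1 unmarked probe set, above the floor in both clones. The lower floor, unmarked probe sets and the mean over probe sets could not change their ratios. Nor could the higher floor change that of Mdm2, and the 3-fold rule changed only the size asked for. The 403 and 404 genes past 2-fold towards D16 and D351 became 140 and 180 with 3-fold, 815 and 761 with the lower floor, 195 and 185 with the higher floor, 145 and 1089 scaled to the controls, and 254 and 265 over unmarked probe sets. The 17 and 8 list genes became 7 and 4 with 3-fold, 10 and 2 with the higher floor, 6 and 26 scaled to the controls, and 9 and 3 over unmarked probe sets. With the lower floor, 14 were higher in D351. The 3 neighbours past 2-fold became 0 with 3-fold, 7 with the lower floor, 0 with the higher floor, 1 with the pseudocount and 18 scaled to the controls. Fewer probe sets, a stricter rule or a shifted median give such counts by construction. No paired analysis was possible because each clone had 1 array, and no array could be left out. Folds over values near 11.2, the highest negative control, are limited by signal over background.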
